A study of Mus musculus with 3 samples.

Results

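The kallikrein-related peptidases of the epidermis are secreted serine proteases encoded side by side in 1 gene cluster, and the report covers 9 of them (Klk5, Klk6, Klk7, Klk8, Klk10, Klk11, Klk12, Klk13 and Klk14) with Spink5, the gene of their inhibitor. The 10 genes were chosen by symbol from the array platform's annotation, out of 19938 named genes. The rule used no measured values, but earlier results of these data were known when the genes were chosen. The samples were dorsal wounds of C57Bl/6 mice, which are inbred, at 6 weeks of age, on day 10, day 12 or day 14 after a full-thickness excision of 1.5 cm2 that took away epidermis and dermis. Every group carried the same wound and no other treatment or genetic change is named, and no unwounded skin was analysed here. Dermis and whatever epidermis covered it went into the same sample, and per the labels the surrounding skin and the follicles of the wound margin were avoided. The tissue of 3 mice made up 1 pool per day, hybridised to 1 array, so there is 1 value per gene and day, no test was possible, and each difference compares 2 single pools. The median log2 expression over 35556 probe sets lay between 7.53 and 7.55 on the 3 arrays. Keratinocyte and fibroblast markers were bright on each of them, with Krt5 and Krt14 between 13.23 and 13.32 log2 units and Col1a1 between 13.48 and 13.49.

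In the outer epidermis, kallikreins are released by granular keratinocytes as inactive precursors and are switched on by cleavage, in part by one another. In human skin, KLK5 and KLK7 cut the proteins of corneodesmosomes, the junctions that hold dead surface cells together, and so allow these cells to be shed. The SPINK5 product LEKTI is cut into fragments that block KLK5, KLK7 and KLK14, and its loss in people causes Netherton syndrome, in which skin barrier and shedding are disturbed. The arrays measured RNA, and neither the amount nor the activity of the proteases is known from them. In whole tissue, a lower value from fewer keratinocytes and one from less RNA per keratinocyte cannot be told apart.

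The kallikrein genes did not move as a block. From day 10 to day 14, Klk5, Klk7, Klk8 and Klk11 had higher values on the later days, Klk10, Klk12 and Klk14 had lower ones, and Klk6, Klk13 and Spink5 differed by less than 0.03 log2 units in size. The largest difference was that of Klk10, which had a 1.96-fold lower level on day 14 than on day 10. Over the 10 genes, the median log2 difference was 0.00 for day 14 against day 10, with 4 genes higher, 4 lower and 2 equal. The same median over all 19938 named genes was 0.00, with 6954 genes higher, 7102 lower and 5882 equal.

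**Figure D1:**
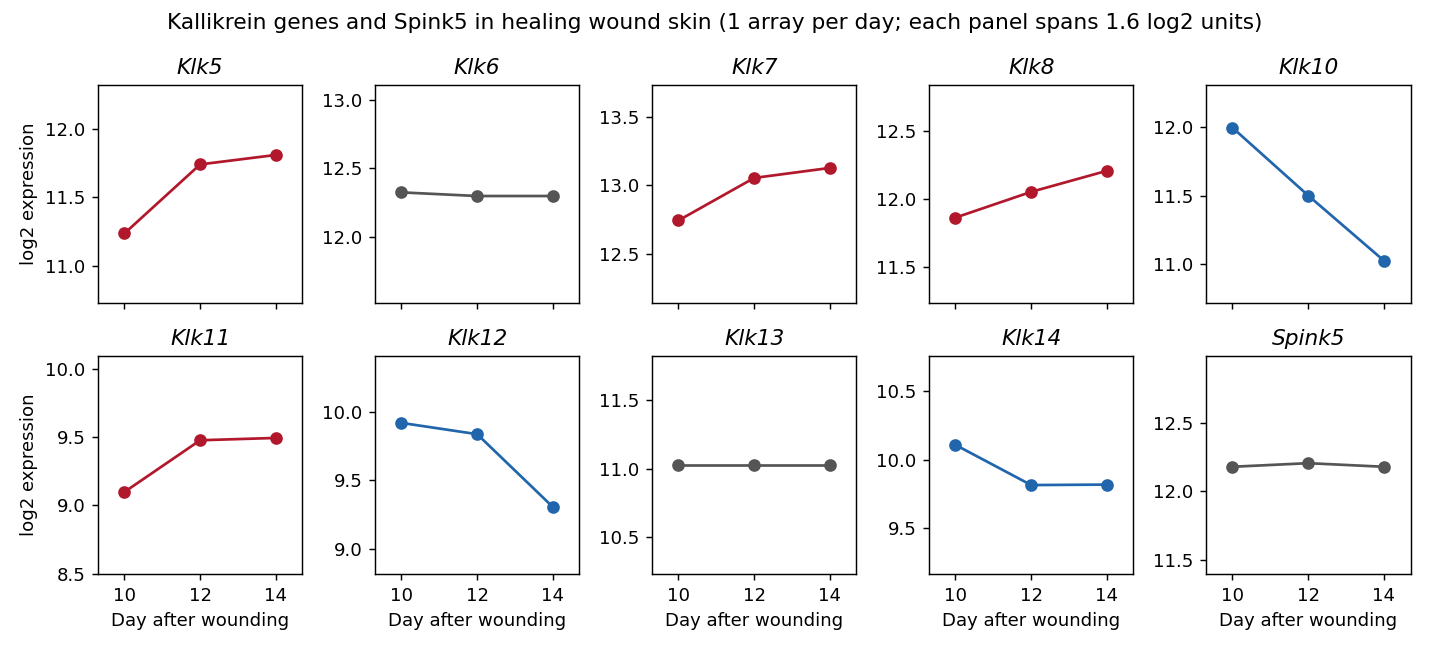
Log2 expression (y axis) of the 9 kallikrein genes and Spink5 by day after wounding (x axis), 1 point per array, with panels that span equal ranges of 1.6 log2 units. Red lines are genes higher on day 14 than on day 10, blue lines genes lower on day 14, and grey lines Klk6, Klk13 and Spink5; Klk10 stood at 12.00, 11.50 and 11.02.

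Each kallikrein gene and Spink5 was read by 1 probe set, so agreement between probe sets could not be checked for them. It was checked in the 777 genes that had 2 probe sets. There, the log2 differences given by both probe sets of a gene lay within 0.37 of each other in 95% of genes for day 12 against day 10. These limits were 0.29 for day 14 against day 12 and 0.48 for day 14 against day 10. They cover how far the probe sets of a gene disagree about a difference between days. Neither noise shared by both probe sets nor the spread between animals is covered. The limits are used here only to say how large a difference is. Of the 10 genes, 3 exceeded the limit on day 12 against day 10 (Klk5, Klk10 and Klk11), 2 on day 14 against day 12 (Klk10 and Klk12) and 3 on day 14 against day 10 (Klk5, Klk10 and Klk12). Klk11, at 0.379, lay just past its limit of 0.374 and stood at 0.366 after the arrays were centred on their medians. Of all 19938 named genes, the numbers past the same limits were 1596, 1107 and 1771.

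None of the 10 genes reached a 2-fold difference between any pair of days. For day 12 against day 10, 0.787% of all named genes were higher by 2-fold or more and 0.13% were lower by that much. For day 14 against day 12 these shares were 0.0552% and 0.196%, and for day 14 against day 10 they were 1.25% and 0.512%, so a count of 0 among 10 genes lies near the background. At 1.5-fold, 0 of the 10 genes were higher on day 14 than on day 10, where 3.11% of all named genes were, and 2 were lower (Klk10 and Klk12), where 2.98% were. Both Klk5 and Klk12 lay close to that threshold of 0.58 log2 units. Klk5 passed it with 0.59 after the arrays were centred on their medians, and with 0.61 after quantile normalization and after cyclic loess, while Klk12 stood at −0.57 and −0.58 after quantile normalization and cyclic loess and no longer passed it.

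Klk5 encodes a trypsin-like protease that in human skin can activate itself and other kallikreins, and so stands at the head of the cascade. Its log2 expression stood at 11.24, 11.74 and 11.81 on days 10, 12 and 14. The day 12 value was 1.42-fold higher than that of day 10, and the day 14 value was 1.05-fold higher than that of day 12. Day 12 had thus reached 87.9% of the whole log2 difference between day 10 and day 14, which was 0.57. Among all named genes, 638 (3.20%) were at least as much higher on day 14 than on day 10.

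Klk7 encodes the chymotrypsin-like enzyme of the stratum corneum, which in human skin cuts corneodesmosin and desmocollin 1. It stood at 12.74 on day 10, 13.05 on day 12 and 13.13 on day 14. Its log2 difference was 0.31 for day 12 against day 10 and 0.07 for day 14 against day 12, the same order of sizes as for Klk5. The difference of 0.38 between day 14 and day 10 was a 1.31-fold higher level and stayed within the limit set by pairs of probe sets.

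Klk8, the neuropsin gene, is known for its part in synaptic plasticity in the mouse brain and is also made in skin. Its values were 11.86, 12.05 and 12.21 on days 10, 12 and 14. Unlike Klk5 and Klk7, it differed by similar amounts over both intervals, 0.19 and 0.15. Both steps of Klk8 lay within the limits from pairs of probe sets, as did both steps of Klk7. On day 14 it was 1.27-fold higher than on day 10.

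Klk11 encodes a trypsin-like serine protease. It stood at 9.10 on day 10, 9.48 on day 12 and 9.49 on day 14. Day 12 was higher than day 10 by 0.38 log2 units, a 1.30-fold difference, whereas day 14 differed from day 12 by 0.02. Nearly the whole difference, 95.7% of it, lay between day 10 and day 12.

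Klk10 was first described in human breast epithelium under the name NES1, a gene active in normal epithelial cells and often silent in breast cancer. It stood at 12.00 on day 10, 11.50 on day 12 and 11.02 on day 14. Both steps were of nearly equal size, with log2 differences of −0.50 for day 12 against day 10 and −0.48 for day 14 against day 12. The day 14 level was 50.9% of the day 10 level. Of all named genes, 115 (0.577%) were at least as much lower on day 14 than on day 10. Klk10 was the only one of the 10 genes whose difference exceeded the limit from pairs of probe sets in both intervals. Its day 14 against day 10 difference is the sum of both steps, so passing that limit too followed from them.

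Klk12 encodes a trypsin-like protease whose human form is known to cut matricellular CCN proteins. Its values were 9.92, 9.84 and 9.30 on days 10, 12 and 14. Here the first interval gave a log2 difference of −0.08 and the second −0.53, so the lower value belonged to day 14 alone. For day 14 against day 12, 176 of all named genes (0.883%) were at least as much lower. On day 14 the level was 65.2% of that on day 10.

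Klk14, another trypsin-like member that is active in the human stratum corneum and is blocked by LEKTI, had its lower value already on day 12. It stood at 10.11 on day 10, 9.81 on day 12 and 9.82 on day 14. Its difference was −0.29 for day 12 against day 10 and 0.00 for day 14 against day 12. It lay within the limit from pairs of probe sets.

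Klk6 encodes neurosin, a trypsin-like protease known from oligodendrocytes as well as epithelia. Its values were 12.32, 12.30 and 12.30, and those of day 12 and day 14 were equal. Klk13, a trypsin-like member, had the value 11.03 on all 3 days without any difference. Exact equality on all days was found in 25.7% of named genes and is therefore no precise measure of a constant level. Spink5 stood at 12.18 on day 10, 12.21 on day 12 and 12.18 on day 14, and its day 14 and day 10 values were equal.

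**Figure D2:**
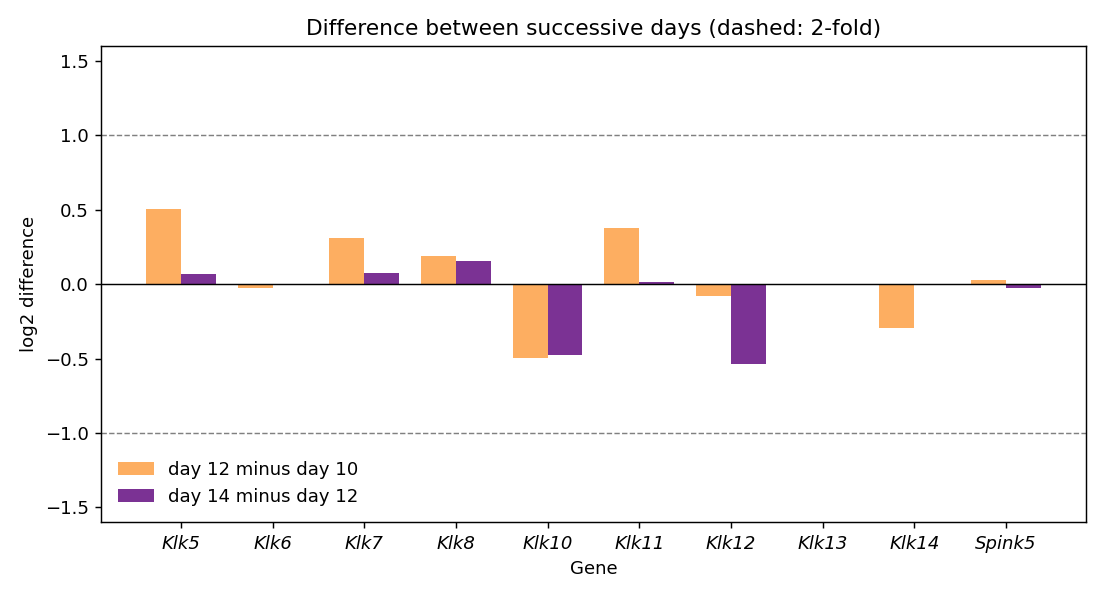
Log2 difference (y axis) of each gene (x axis) for day 12 minus day 10 in orange and day 14 minus day 12 in purple, with dashed lines at 2-fold. Klk5, Klk7 and Klk11 differ mainly in the first interval, Klk12 mainly in the second with −0.53, and Klk10 in both.

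Set against the inhibitor, Klk5, Klk7 and Klk14, whose human counterparts were named above as blocked by LEKTI, differed in direction. The ratio of Klk5 to Spink5 was 1.49-fold higher on day 14 than on day 10, and that of Klk7 to Spink5 was 1.31-fold higher. For Klk14 the ratio was 1.22-fold lower. Spink5 had equal values on day 10 and day 14, so these ratio changes only repeat the differences of the proteases themselves. Those of Klk7 and Klk14 stayed within the limit from pairs of probe sets. For Klk5 and Klk7, most of the difference was present on day 12, when the ratios were 1.39-fold and 1.22-fold higher than on day 10. Among the proteases, the ratio of Klk5 to Klk10 was 2.93-fold higher on day 14 than on day 10, and the ratio of Klk7 to Klk10 was 2.57-fold higher. Klk5 had the largest higher difference and Klk10 the largest lower one, so their pair is the extreme of all protease pairs. Both ratio changes only combine differences given above, and none of these genes reached 2-fold by itself. Klk7 and Klk11 kept nearly the same ratio, with a change of −0.01 log2 units between day 14 and day 10. These are changes of ratios within an array, and no level of one gene is set against the level of another.

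The genes lie next to each other on chromosome 7, in the order Klk14, Klk13, Klk12, Klk11, Klk10, Klk9, Klk8, Klk7, Klk6, Klk5, Klk4 and Klk15 in the RefSeq gene table of GRCm38.p6, while Spink5 lies on chromosome 18. Neighbours differed in opposite directions. Klk11, higher on day 14 than on day 10 by 0.40 log2 units, lies between Klk12 with −0.62 and Klk10 with −0.97. The Klk11 difference stayed within the limit of 0.48 from pairs of probe sets, while those of Klk12 and Klk10 exceeded it. From Klk9 to Klk5, by contrast, no gene was lower by more than 0.03. Klk9, which is not one of the 10 genes but sits between Klk10 and Klk8, stood at 12.23, 12.50 and 12.45 on days 10, 12 and 14. Its log2 difference of 0.26 on day 12 against day 10 was of the size seen for Klk7 and Klk8.

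**Figure D3:**
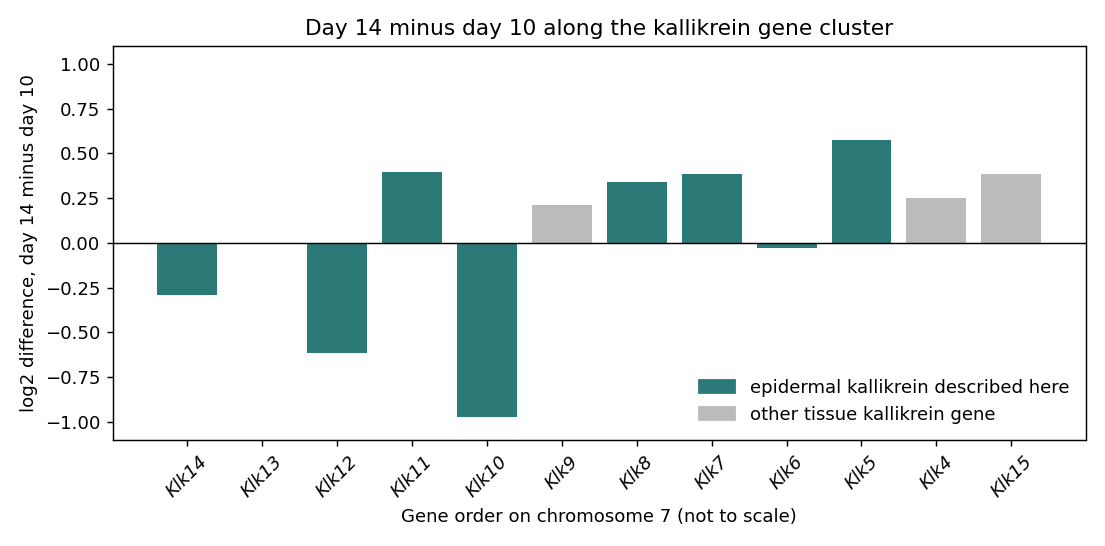
Log2 difference of day 14 minus day 10 (y axis) for 12 kallikrein genes in their order along chromosome 7 (x axis, not to scale), with the genes described here in green and other tissue kallikrein genes in grey. Klk11 with 0.40, within the limit of 0.48 from pairs of probe sets, stands between Klk12 with −0.62 and Klk10 with −0.97.

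Start-site windows are printed for the genes with the largest differences in each direction, Klk5 on the one hand and Klk10 and Klk12 on the other, and for Klk8, which shares a sequence element with Klk10. Each window holds 250 bases before and 50 after a transcription start in RefSeq, on the plus strand of GRCm38.p6, at chr7:43842019-43842318 for Klk5, chr7:43797327-43797626 for Klk8, chr7:43780804-43781103 for Klk10 and chr7:43768850-43769149 for Klk12. Capitals mark TTAAAA.
Klk5: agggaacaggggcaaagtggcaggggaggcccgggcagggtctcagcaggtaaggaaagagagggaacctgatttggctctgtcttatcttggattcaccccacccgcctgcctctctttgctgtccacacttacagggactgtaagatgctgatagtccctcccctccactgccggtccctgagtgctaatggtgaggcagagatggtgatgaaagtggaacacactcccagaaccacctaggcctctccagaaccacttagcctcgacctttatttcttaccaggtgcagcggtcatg
Klk8: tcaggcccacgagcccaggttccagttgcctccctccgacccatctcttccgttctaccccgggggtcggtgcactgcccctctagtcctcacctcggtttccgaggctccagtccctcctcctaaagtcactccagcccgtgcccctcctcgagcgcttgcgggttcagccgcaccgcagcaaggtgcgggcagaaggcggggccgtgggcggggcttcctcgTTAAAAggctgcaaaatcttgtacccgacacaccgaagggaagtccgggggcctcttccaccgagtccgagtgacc
Klk10: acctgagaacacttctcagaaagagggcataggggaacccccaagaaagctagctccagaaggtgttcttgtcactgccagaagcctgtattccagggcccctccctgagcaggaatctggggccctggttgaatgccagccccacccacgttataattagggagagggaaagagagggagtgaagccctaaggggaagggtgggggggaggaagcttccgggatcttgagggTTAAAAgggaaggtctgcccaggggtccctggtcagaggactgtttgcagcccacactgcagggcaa
Klk12: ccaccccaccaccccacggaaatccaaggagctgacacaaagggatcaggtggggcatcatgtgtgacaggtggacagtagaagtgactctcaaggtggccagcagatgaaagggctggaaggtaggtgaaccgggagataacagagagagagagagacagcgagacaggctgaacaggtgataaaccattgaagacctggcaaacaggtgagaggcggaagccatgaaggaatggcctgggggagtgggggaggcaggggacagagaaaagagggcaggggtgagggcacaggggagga

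The windows of all 9 protease genes, 11 in number because Klk6 and Klk11 had more than 1 start, were searched on both strands. The TATA box TATAAA, the AP-1 site TGANTCA and the grainyhead site AACNGGTT were in none of them. Of 32851 windows of the same length, 13.6% held TATAAA, 7.81% TGANTCA and 2.09% AACNGGTT. The element TTAAAA was searched after the windows had been read. It was in 4 of the 11 windows, each of a different gene, against 19.2% of all windows. Counted from the start site, its first base was at position −17 in Klk10, −26 in Klk8, −68 in a window of Klk6 and −233 in a window of Klk11. The 4 genes that held it comprised 2 that were higher on day 14 than on day 10 (Klk8 and Klk11), 1 that was lower (Klk10) and Klk6. The matches are letters in these windows and say nothing about a factor.

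Of 17 other tissue kallikrein genes listed, 12 were measured. The 9 measured Klk1b genes, whose products are best known from the mouse salivary gland, stood between 5.07 and 6.15 log2 units on every array and differed by at most 0.13 between days. Their sequences are close to one another, so their probe sets may share signal. Klk4, known for its role in tooth enamel, stood at 7.35, 7.38 and 7.60 on days 10, 12 and 14, and Klk15 at 6.40, 6.51 and 6.78. Klk9, Klk4 and Klk15 were the 3 genes of this list with log2 differences above 0.2 for day 14 against day 10, at 0.21, 0.25 and 0.38, and none passed the limit from pairs of probe sets.

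Of 13 other epidermal proteases measured, 7 were higher on day 14 than on day 10, 3 were lower and 3 equal, with a median log2 difference of 0.04. The median was 0.47 over the genes of the list whose highest value reached 8.36, the median over all genes, and 0.49 over those with a mean in the top 25%. Prss8, the gene of the membrane protease prostasin, stood at 9.43 on day 10, 10.29 on day 12 and 10.42 on day 14, a 1.99-fold higher level on day 14 than on day 10. Tmprss13, a transmembrane serine protease gene, and Casp14, the caspase gene of cornifying keratinocytes, were 1.68-fold and 1.66-fold higher. St14, which encodes matriptase, the activator of prostasin, was 1.50-fold higher. Mep1a and Mep1b, whose meprins can activate human kallikrein precursors, stood at 5.20 and 5.76 on day 14. They had stood at 5.20 and 5.72 on day 10, in the low range of the Klk1b genes.

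The other epidermal protease inhibitors gave 9 genes higher, 3 lower and 1 equal on day 14 against day 10, with a median log2 difference of 0.43 over 13 genes. Spint1 and Spint2, the inhibitors of matriptase, were 1.41-fold and 1.35-fold higher. Serpina12, which encodes vaspin, an inhibitor of human KLK7, stood at 9.89, 10.63 and 10.75 on days 10, 12 and 14 and was 1.81-fold higher on day 14 than on day 10. Spink7, a Kazal-type inhibitor of the same family as Spink5, was the only gene of this list past 2-fold in any comparison. It stood at 8.996, 10.80 and 9.87 and was thus 3.48-fold higher on day 12 than on day 10. On day 14 it was 1.90-fold below its day 12 level. Slpi, the secretory leukocyte protease inhibitor gene, differed most of the 3 lower genes and stood at 10.33, 9.99 and 9.40. Its log2 difference of −0.94 for day 14 against day 10 was close to that of Klk10, −0.97.

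Among 7 measured substrates and effectors, 4 were higher, 2 lower and 1 equal on day 14 against day 10, with a median of 0.04. It was 0.27 with probe sets of several symbols, 0.26 over genes whose highest value reached 8.36 and 0.31 over the top 25%. Cdsn, the corneodesmosin gene, stood at 12.47 on day 10, 12.96 on day 12 and 12.94 on day 14, and like Klk5 and Klk7 had its difference in the first interval. Dsg1b, a desmoglein gene with near-identical neighbours, was 1.20-fold higher on day 14 than on day 10. Smpd1, the acid sphingomyelinase gene, was 1.28-fold higher. Il1b, whose precursor human KLK7 can cut, stood at 10.44, 11.08 and 9.52 and was 2.95-fold lower on day 14 than on day 12. Camp, the cathelicidin gene, had the value 6.50 on all 3 days. Tslp, an epithelial cytokine gene induced through the kallikrein target receptor PAR2, stood at 8.47, 8.42 and 8.14.

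Markers of other keratinocyte states and of skin appendages differed on the same arrays. Of 15 cornified epidermis genes, 14 were higher on day 14 than on day 10 and 1 was equal, with a median log2 difference of 0.72. Their summed linear level came to 58645, 82038 and 89607 on days 10, 12 and 14, and Krt2 was the dimmest, at 6.01 on each array. Krt77, a suprabasal keratin gene, Flg2, a filaggrin-family gene, and Lce1f, a late cornified envelope gene, were 5.33-fold, 6.30-fold and 2.68-fold higher on day 14 than on day 10. Klk5, Klk7, Klk8 and Klk11 differed in the direction of this list by 0.34 to 0.57, below its median. The part of cornifying cells in those differences was not tested.

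The 8 genes of activated keratinocytes were all lower on day 14 than on day 10, the direction of Klk10, Klk12 and Klk14. Their median was −0.11, or −0.07 after quantile normalization, and none of the 8 passed the limit from pairs of probe sets. The log2 differences of S100a9, Sprr2d and Sprr1b, at −0.34, −0.26 and −0.21, were the largest in size of that list, below those of Klk10 and Klk12. The summed linear level of the list was 51928, 51079.5 and 47599 on days 10, 12 and 14. Basal epidermis genes had a median of 0.05, or 0.08 after cyclic loess, with 7 of 8 higher. In that list Krt15 was 3.84-fold higher on day 14 than on day 10, Col17a1 was 1.57-fold higher, and Cdh3 was 1.38-fold lower. Inner root sheath and hair shaft genes had a median of 0.91, 9 of 9 being higher, and a summed linear level of 1148, 1348 and 2399 on days 10, 12 and 14. Krt71, Krt25 and Krt73 of that list were 3.08-fold, 2.45-fold and 2.15-fold higher on day 14 than on day 10. Sebaceous gland genes had a median of 0.48, or 1.76 over those whose highest value reached 8.36, 8 of 9 being higher, and their summed linear level was 4002, 8995 and 8243. Fa2h, Krt79 and Far2 were 3.86-fold, 3.77-fold and 3.42-fold higher on day 14 than on day 10. The part of these structures in the kallikrein values was not tested.

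**Figure D4:**
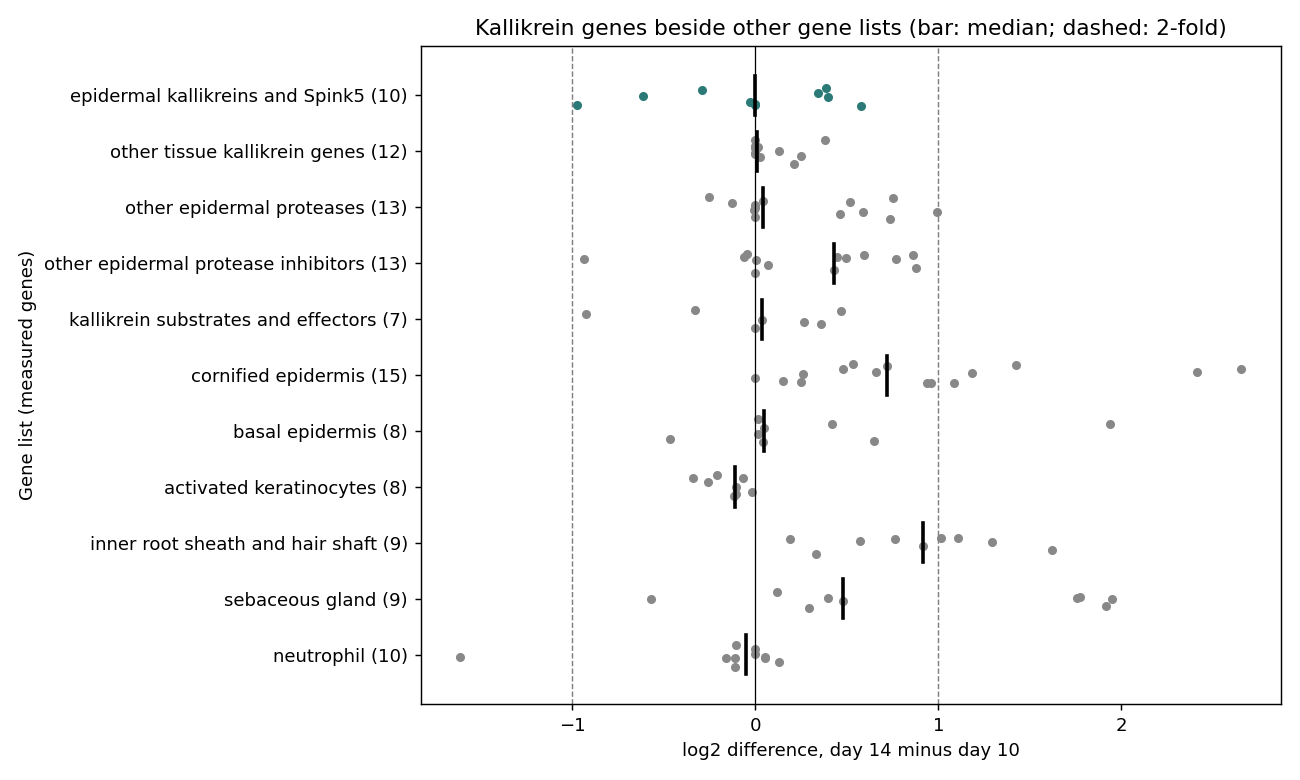
Log2 difference of day 14 minus day 10 (x axis) for each measured gene, 1 point per gene, in 11 gene lists (y axis, number of measured genes in brackets), with black bars at the medians and dashed lines at 2-fold. The epidermal kallikreins and Spink5, in green at the top, spread on both sides of their median of 0.00, while the cornified epidermis list has a median of 0.72.

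Markers of cells outside the epithelium were read on the same arrays. For day 14 against day 10, the medians were −0.02 for 6 fibroblast genes, −0.05 for 10 neutrophil genes, 0.12 for 5 macrophage genes and 0.03 for 6 T cell genes. Over the top 25%, the T cell list held Thy1 alone, at −0.42, so that value is not one of T cell genes as a set. The neutrophil median was −0.16 over genes whose highest value reached 8.36, and the fibroblast median was 0.01 after cyclic loess. Among them Pdgfra differed by −0.29, Lum by −0.17 and Dcn by −0.04. Mmp8, which encodes a collagenase of neutrophils, was 3.06-fold lower on day 14 than on day 10, while the granule genes Elane and Mpo stayed at 6.87 or below on each array. Cd68, Csf1r and Mrc1 differed by −0.18, 0.16 and 0.21, and Thy1, Cd3g and Cd8a by −0.42, 0.38 and 0.06. For Csf3r and Mpo the differences were −0.16 and 0.13. The 3 measured genes of Schwann cells and nerves were higher, with a median of 0.72, and Gfra3, L1cam and Sox10 differed by 1.16, 0.72 and 0.59. Skeletal muscle genes had a median of −0.18 over 5 genes, with Des, Acta1 and Myh4 at −1.04, −0.50 and −0.18, while Ckm and Tnnt3 were not lower, at 0.04 and 0.00. That median was −0.77 over the genes whose highest value reached 8.36.

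The course of Klk10 was compared with that of 9778 other named genes above the level filter described in the processing, by the Euclidean distance between their pairs of differences over both intervals. The nearest were Frk, a Src-related tyrosine kinase gene, Tmem26, Tgfb2, which encodes transforming growth factor beta 2, Tmem45b and Nipsnap3b. Their distances ran from 0.01 for Frk to 0.04 for Nipsnap3b in log2 units. Tgfb2 stood at 10.94 on day 10, 10.41 on day 12 and 9.93 on day 14, and Frk at 10.16, 9.66 and 9.17. A likeness over 3 arrays rests on 2 differences per gene and is a description only.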

How the data were processed

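RNA from 3 tissue pools was hybridised to 3 arrays, and 250 ng of total RNA was amplified and labelled with biotin, per the labels' protocols. The deposited values are log2 expression per probe set, as the authors normalized them; the log2 scale was taken from the range of 4.37 to 14.1. The submitters' processing notes name RMA and Partek 6.6 and give no role for either. No scanner output was used, so background and detection are unknown.

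The 21789 probe sets with 1 symbol in the platform annotation were averaged per symbol, giving 19938 genes; 1621 had several and 12146 were not listed. The Entrez identifiers of the 10 genes matched their symbols in a RefSeq gene table of GRCm38.p6, and so did RefSeq start-site windows for the 9 proteases. The sequence of Spink5 is not reported here. With 1 array per day, no test was made: log2 differences are the later minus the earlier day, and counts use 2-fold, or 1.5-fold where stated. All 10 genes passed a level filter (highest value over the arrays of at least 8.36, its median over genes), which was an alternative here. Other alternatives were a mean in the top 25% of genes, centring, quantile normalization, cyclic loess (limma 3.58.1, R 4.3.3), the brightest probe set, and probe sets with several symbols. Counting was tested on simulated data. The genes and lists were chosen with earlier results of these data known. Named from each list were the 3 genes with the largest difference between day 14 and day 10. All measured kallikreins and the 5 genes closest to Klk10 in course were named too. St14, Mep1a, Mep1b, Spint1, Spint2, Dsg1b, Camp, Tslp, Elane, Krt2, Krt5, Krt14, Col1a1, Ckm and Tnnt3 were added after their values were seen.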

Additional observations from a re-analysis of the deposited data

How the results depend on the processing

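No paired analysis was possible because each day has 1 array and no result comes from a test. The number of arrays limits the precision, and the spread between animals cannot be estimated. Each of the 30 differences of the kallikrein genes and Spink5 moved by less than 1 robust SD under centring, cyclic loess and quantile normalization. That SD, between probe sets of a gene, was 0.04, 0.05 and 0.07 log2 units in the 3 comparisons. The level filter and the filter on the top 25% only leave genes out, and each of the 10 genes had 1 probe set. Neither filter nor the choice of the brightest probe set could therefore change a difference. The top 25% left 24 differences of 8 genes. Signs changed only where values were near 0: the day 14 against day 10 difference of Klk6 was −0.03 as deposited and 0.02 after quantile normalization. No gene among the 10 reached 2-fold under any of these alternatives, and as deposited 2 were lower and 0 higher at 1.5-fold on day 14 against day 10. Of these, Klk12 no longer passed 1.5-fold after quantile normalization (−0.57) or cyclic loess (−0.58), while Klk5 passed it as higher after centring (0.59), quantile normalization (0.61) and cyclic loess (0.61).

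Counts over all named genes changed more. With the top 25% of genes, day 12 against day 10 gave 55 higher and 4 lower at 2-fold, the second interval gave 1 and 11, and the whole span gave 88 and 31. At 1.5-fold these counts were 464 and 191, 54 and 142, and 621 and 594, in place of 157 and 26, 11 and 39, and 250 and 102. The 11 genes higher on day 14 than on day 12 became 18 with probe sets of several symbols and 3 with the level filter. Of the other lists' medians, 22 of 45 moved with the level filter, 16 of 33 with the top 25% and 1 of 45 with probe sets of several symbols, and fewer genes per list were left under both filters.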
